A study of Mus musculus with 6 samples.

Results

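The genes Hspa5, Hsp90b1, Calr, Canx, Pdia4, Dnajb9, Herpud1, Xbp1, Atf4 and Ddit3 encode calcium-binding chaperones and folding enzymes of the endoplasmic reticulum (ER) and factors of the unfolded protein response (UPR). They were chosen by name as a group of known function, with earlier results of these data known. They were found in the gene table by their Ensembl 95 symbols (GRCm38). The 10 symbols correspond to 11 gene identifiers, because Ddit3 names 2 loci. All 10 genes passed the filter on low counts, among 19087 genes tested and 54838 genes in the table.

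The ER is the main calcium store of a neuron, and many of the chaperones that fold secreted and membrane proteins in its lumen bind calcium. When unfolded proteins accumulate there, 3 membrane sensors act: IRE1 (gene Ern1) splices the mRNA of Xbp1, PERK (gene Eif2ak3) slows translation but favors that of Atf4, and ATF6 is cut by the site-1 and site-2 proteases and moves to the nucleus. XBP1, ATF4 and ATF6 then switch on chaperone, degradation and amino acid metabolism genes, and ATF4 also switches on Ddit3, which encodes CHOP. Counts per gene do not show the splicing of Xbp1 mRNA, the translation of Atf4 mRNA or the cleavage of ATF6.

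RNAseq was performed on polyA RNA of single hippocampi, 3 from wild-type and 3 from Tg(ORAI1)Ibd females, all 7 months old, with 1 library per mouse. The transgenic line was made on the FVB/NJ background by pronuclear injection of a human ORAI1 coding sequence placed in the mouse Thy-1.2 cassette, which drives expression in neurons. ORAI1 is the plasma membrane channel of store-operated calcium entry, which opens when the ER calcium store is emptied. The labels give no treatment. The question for the genes described here is whether they differed between hippocampi with and without this channel in excess. Nothing in the labels says more about how the mice relate to each other, so the tests measure the spread between these 6 animals.

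The libraries held 37414241 to 52497799 counted fragments, and mouse 1 of each genotype had the largest. Counts assigned to the mouse Orai1 gene were at 7.16 to 8.08 CPM (counts divided by the TMM-scaled library total) in the wild-type libraries. They were at 313 to 331 CPM in the transgenic libraries, as each label says. The transgene is human and reads were aligned to the mouse genome. Whether the added counts came from the transgene or from the mouse gene cannot be told from these values. Neuronal markers were abundant in every library, at a summed 7329 to 8040 CPM over 7 genes, and the hippocampal neuron genes among them, Prox1, Fibcd1 and Neurod6, were all detected. All 15 markers of the choroid plexus epithelium, which lies in the ventricle beside the hippocampus, were lower in transgenic mice, with a median log2 fold change of -2.73. Their summed level was 3884 to 6043 CPM in the wild-type and 548 to 869 CPM in the transgenic libraries, and no marker was at 0 in any library. Fold changes also followed GC content: the median was -0.18 in the decile of genes with the lowest GC content and 0.13 in the decile with the highest. Values with this trend removed from each library (GC offsets) are given below for genes whose value they moved by over 1.5 times or whose call they ended, and for some others.

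Several of the 10 genes are textbook targets of the ER stress response element (ERSE), which ATF6 binds together with NF-Y. RefSeq promoters of GRCm38.p6, from 250 bases before to 50 bases after the transcription start, were searched on both strands for CCAAT followed after 9 bases by CCACG. This element was present in 0.119% of 32851 promoters and in those of 4 of the 10 genes, all of them lumenal or membrane chaperones. The matches are shown because they are what these chaperones share beyond their function. Each is read along the element, with its fixed letters in capitals.
Hspa5, 65 bases before the start: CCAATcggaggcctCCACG
Calr, 162 bases before the start: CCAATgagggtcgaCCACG
Hsp90b1, 212 bases before the start: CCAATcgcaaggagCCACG
Hsp90b1, 107 bases before the start: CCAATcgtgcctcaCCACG
Canx, 145 bases before the start: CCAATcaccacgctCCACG

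The related element ERSE-II, ATTGG followed after 1 base by CCACG, was present in 0.0365% of promoters and, of the 10 genes, in Herpud1, 52 bases before the start. Herpud1 also held the amino acid response element TGATGCAA, a site of ATF4, 112 bases before the start and on the reverse strand. That element was present in 0.895% of promoters, its variant TGATGAAA in 1.02% and the UPR element TGACGTGG, which contains the reverse complement of CCACG, in 0.676%. The last 2 had no match in the 10 genes, and none of the elements searched had a match in Pdia4, Dnajb9, Xbp1, Atf4 or Ddit3. A match is a description of letters and not a measured site. Only exact matches within this window were sought, so a gene without one may hold a variant or a more distant element. The 250 bases before the start are printed for Hspa5 and Herpud1, as promoters with matches, and for Xbp1 and Ddit3, as those of the genes that differed between genotypes, with the letters of a match in capitals. They lie at chr2:34771840-34772089 on the plus strand (Hspa5), chr8:94386179-94386428 on the plus strand (Herpud1), chr11:5520391-5520640 on the plus strand (Xbp1) and chr10:127290543-127290792 on the plus strand (Ddit3).
Hspa5: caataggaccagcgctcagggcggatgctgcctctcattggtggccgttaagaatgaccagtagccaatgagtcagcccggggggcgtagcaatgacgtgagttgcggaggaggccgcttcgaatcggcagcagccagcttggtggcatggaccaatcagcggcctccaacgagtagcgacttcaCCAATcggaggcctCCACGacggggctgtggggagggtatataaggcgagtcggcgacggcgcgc
Herpud1: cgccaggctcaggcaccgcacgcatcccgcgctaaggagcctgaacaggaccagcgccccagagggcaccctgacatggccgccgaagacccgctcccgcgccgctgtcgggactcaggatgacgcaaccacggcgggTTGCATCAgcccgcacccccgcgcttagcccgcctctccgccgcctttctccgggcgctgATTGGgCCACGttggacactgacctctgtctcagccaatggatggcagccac
Xbp1: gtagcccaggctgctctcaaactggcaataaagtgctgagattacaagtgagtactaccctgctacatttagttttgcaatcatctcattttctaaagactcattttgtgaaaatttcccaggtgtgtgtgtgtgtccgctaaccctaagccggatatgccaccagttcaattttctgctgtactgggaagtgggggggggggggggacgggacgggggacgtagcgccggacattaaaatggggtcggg
Ddit3: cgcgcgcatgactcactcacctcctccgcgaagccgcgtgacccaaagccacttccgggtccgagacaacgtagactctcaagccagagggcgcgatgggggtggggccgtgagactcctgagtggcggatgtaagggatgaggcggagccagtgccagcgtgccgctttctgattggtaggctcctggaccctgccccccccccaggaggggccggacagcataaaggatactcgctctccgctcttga

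In wild-type hippocampus the 10 genes covered a wide range of levels per length, given here as FPKM (counts relative to the deposited exonic length and the scaled library total, mean ± SD, n = 3). Calr, which encodes the lumenal calcium-binding chaperone calreticulin, was the highest at 118.0 ± 5.16 FPKM. It was followed by Hsp90b1, the HSP90 of the ER, at 88.6 ± 4.03 FPKM, by Canx, the membrane-bound lectin chaperone calnexin, at 77.2 ± 1.72 FPKM, and by Hspa5, the HSP70 of the ER known as BiP, at 52.8 ± 3.61 FPKM. These 4 chaperones had a higher level than 96.0% to 98.7% of the genes tested. Atf4 was the next at 31.0 ± 2.86 FPKM. The co-chaperone Dnajb9 was at 19.5 ± 0.525, the disulfide isomerase Pdia4 at 18.6 ± 0.544, Xbp1 at 18.1 ± 0.944 and Herpud1, a membrane component of ER-associated degradation, at 16.1 ± 1.38 FPKM. Ddit3 was the lowest at 7.81 ± 0.528 FPKM, above 67.5% of the genes tested.

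The values of the 3 mice did not overlap between neighbours from Calr down to Dnajb9, nor between Herpud1 and Ddit3, whereas those of Dnajb9, Pdia4, Xbp1 and Herpud1 overlapped from each gene to the next. In transgenic hippocampus the first 5 places were held by the same genes, but Canx at 74.5 ± 3.36 and Hspa5 at 66.6 ± 10.9 FPKM overlapped. Xbp1, the eighth in wild-type mice, was the sixth at 25.6 ± 2.56 FPKM, with its 3 values above those of the next gene, Pdia4.

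**Figure D1:**
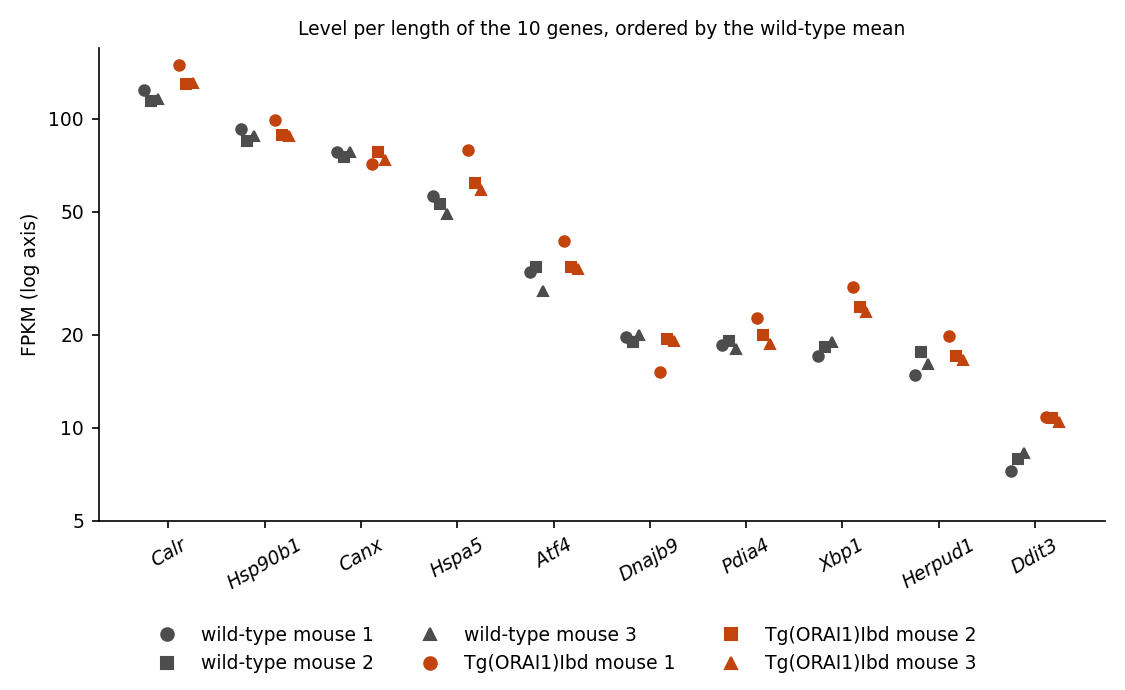
Level per length of the 10 genes in each hippocampus, in FPKM on a log axis, with genes ordered by the wild-type mean and 1 point per mouse (grey, wild-type; orange, Tg(ORAI1)Ibd; the symbol gives the mouse). Calr was the highest at 118.0 and Ddit3 the lowest at 7.81 FPKM in the wild-type mean, and the orange points of Xbp1 and Ddit3 lie above all grey points of the same gene.

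Between genotypes, 2 of the 10 genes differed by edgeR's quasi-likelihood test, with p-values adjusted over all genes tested by the Benjamini-Hochberg method (adjusted p under 0.05), and both were higher in transgenic mice. They were Xbp1 and Ddit3, which encode transcription factors of the UPR. Over all genes tested, 7.10% were called in either direction, 3.10% higher and 4.0% lower. None of the 6 chaperones and folding enzymes was called, with 2 of them, Hspa5 and Calr, at an unadjusted p under 0.05, a threshold that 27.8% of all genes tested passed. With DESeq2's Wald test these were called too, which made 4 of 10, all higher. That test called 11.7% of all genes tested, and 5.53% of all genes as higher. With limma-voom 2 of 10 were called, against 6.61% of all genes, and 2.88% of all genes as higher. The median log2 fold change of the 10 genes was 0.17, against -0.010 for all genes tested, and 8 of 10 were positive. Without transgenic mouse 1 the median of the 10 genes was 0.073. The part of the choroid plexus difference in these values was not tested. In bulk tissue, fewer cells of a type and less RNA per cell cannot be told apart.

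**Figure D2:**
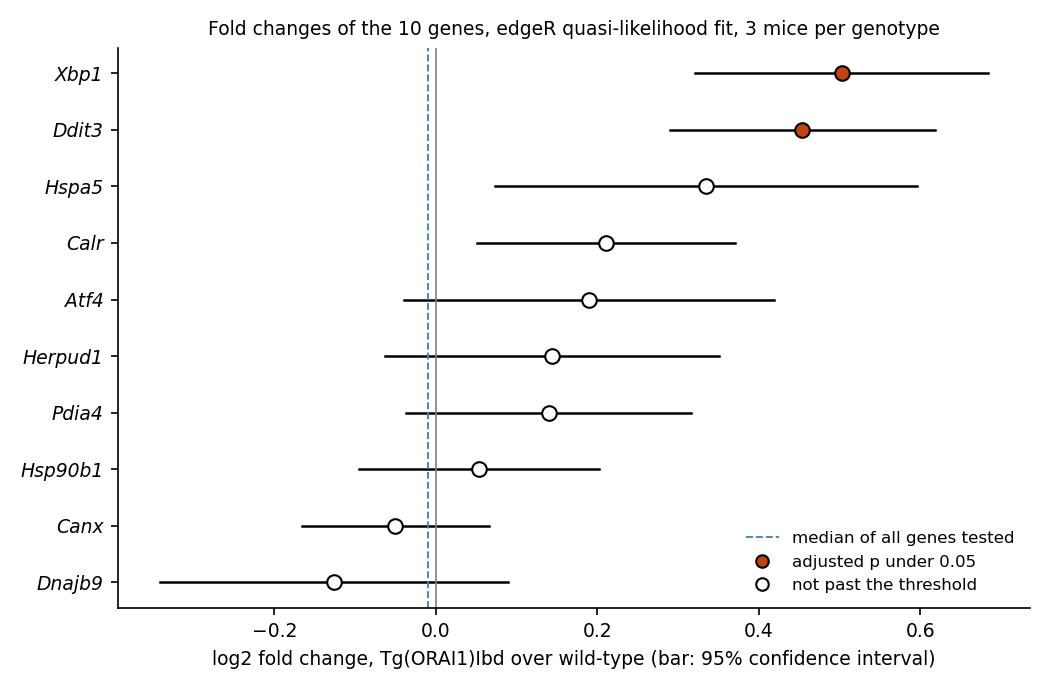
Log2 fold change of each of the 10 genes between Tg(ORAI1)Ibd and wild-type hippocampi (points) with its 95% confidence interval (bars), from edgeR's quasi-likelihood fit, ordered by size. Filled points are Xbp1 (0.50) and Ddit3 (0.45), with an adjusted p under 0.05, and the dashed line is the median of all genes tested (-0.010).

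Xbp1 encodes the transcription factor that IRE1 activates by splicing. It lies on chromosome 11 at 5520659 to 5525893 on the plus strand (ENSMUSG00000020484). Wild-type mice 1 to 3 had 55.3, 59.4 and 61.4 CPM, and transgenic mice 1 to 3 had 92.5, 80.0 and 76.8 CPM. The groups did not overlap, and the lowest transgenic library lay well above the highest wild-type library. Xbp1 rose 1.42-fold, with a log2 fold change of 0.50 (SE 0.078, 95% CI 0.32 to 0.68, adjusted p = 0.0204). With GC offsets the log2 fold change was 0.51 (adjusted p = 0.0265), and without transgenic mouse 1, the highest library, it was 0.42 (adjusted p = 0.0167). The call was lost without wild-type mouse 1 (adjusted p = 0.112), wild-type mouse 2 (0.103), transgenic mouse 2 (0.0549) or transgenic mouse 3 (0.0516), while the log2 fold change stayed between 0.42 and 0.58 in all 6 fits that left out a mouse.

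Ddit3 encodes CHOP, a transcription factor induced downstream of PERK and ATF4 and known for its part in cell death after lasting ER stress. Its expressed locus is on chromosome 10 at 127290774 to 127296288 on the plus strand (ENSMUSG00000025408). It was at 12.4, 13.5 and 14.2 CPM in wild-type mice 1 to 3 and at 18.6, 18.4 and 17.9 CPM in transgenic mice 1 to 3. The transgenic libraries were close to each other, with an SD of 0.367 CPM against 0.904 CPM in the wild-type, and all were above the wild-type libraries. Ddit3 rose 1.37-fold, with a log2 fold change of 0.45 (SE 0.071, 95% CI 0.29 to 0.62, adjusted p = 0.0205). With GC offsets the log2 fold change was 0.44 (adjusted p = 0.0257), and without transgenic mouse 1 it was 0.44 (adjusted p = 0.0319). As for Xbp1, the call was lost without wild-type mouse 1 (adjusted p = 0.0973), wild-type mouse 2 (0.0980), transgenic mouse 2 (0.0631) or transgenic mouse 3 (0.0726). The log2 fold change stayed between 0.42 and 0.50 in all 6 fits. In the 4 that lost the call, 77 to 192 genes of the whole table were called.

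The counts behind Ddit3 were the smallest of the 10 genes, 537 to 868 per library. The second locus named Ddit3 (ENSMUSG00000116429) shares 105 exonic bases with the first on the same strand, and it had 0 counts in every library. The genes Mars and Gm4189 overlap it on the opposite strand, and the counting took strand into account.

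Atf4, the factor that PERK favors and that acts on amino acid metabolism and on Ddit3, was at 75.4, 78.3 and 65.5 CPM in wild-type and at 94.8, 78.2 and 76.9 CPM in transgenic mice. Transgenic mouse 1 was the highest, and the other two lay within the wild-type range. The log2 fold change was 0.19 (95% CI -0.040 to 0.42, adjusted p = 0.255), with an interval that includes 0, and it was 0.085 without transgenic mouse 1.

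Hspa5 encodes BiP, which binds unfolded proteins and holds the 3 sensors inactive. Its libraries had 239, 224 and 208 CPM in wild-type mice 1 to 3 and 334, 263 and 248 CPM in transgenic mice 1 to 3. All transgenic values lay above all wild-type values, but transgenic mouse 1 stood far from the other two, and the SD was 46.1 CPM in transgenic against 15.3 CPM in wild-type mice. The log2 fold change was 0.33 (95% CI 0.073 to 0.60), with an adjusted p of 0.105, and 0.19 without transgenic mouse 1 (adjusted p = 0.108). DESeq2's Wald test gave an adjusted p of 0.0270. Its GC content of 47.7% is in the fourth decile, and with GC offsets the log2 fold change was 0.41 (adjusted p = 0.118).

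Calr was at 357, 328 and 335 CPM in wild-type mice and at 431, 373 and 376 CPM in transgenic mice. The groups did not overlap here either, and transgenic mouse 1 was again the highest library. The log2 fold change of 0.21 (95% CI 0.051 to 0.37) had an adjusted p of 0.0990, or 0.0421 with DESeq2's Wald test, and it was 0.14 without transgenic mouse 1 (adjusted p = 0.122). For 4 of the 10 genes, Hspa5, Calr, Xbp1 and Ddit3, all 3 transgenic values lay above all 3 wild-type values, which was the case for 16.9% of all genes tested. For none of the 10 did all transgenic values lie below, the case for 17.9% of all genes tested.

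Hsp90b1 differed little between genotypes, with 374, 342 and 355 CPM in wild-type and 400.5, 357 and 355 CPM in transgenic mice. Its log2 fold change was 0.054 (95% CI -0.095 to 0.20, adjusted p = 0.632). Canx, the calnexin gene, was at 368, 353 and 366 CPM in wild-type and at 336, 367 and 346 CPM in transgenic mice, with a log2 fold change of -0.050 (95% CI -0.17 to 0.065, adjusted p = 0.556). In this fit, without GC offsets, the intervals of these 2 abundant chaperones leave out 0.50, the log2 fold change of Xbp1. The 2 were not tested against Xbp1. Both have a low GC content, 42.7% and 42.9% in the second decile, and with GC offsets the log2 fold changes were 0.21 for Hsp90b1 and 0.10 for Canx, the latter with its sign turned and an adjusted p of 0.276. Without transgenic mouse 1 that of Hsp90b1 was -0.0055 and that of Canx -0.022.

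Pdia4, a disulfide isomerase, was at 44.5, 45.9 and 43.3 CPM in wild-type and at 54.5, 47.9 and 44.7 CPM in transgenic mice, with a log2 fold change of 0.14 (95% CI -0.038 to 0.32, adjusted p = 0.275), which was 0.056 without transgenic mouse 1 and 0.22 without transgenic mouse 3. Dnajb9 encodes a co-chaperone of BiP, and with Canx it is a gene in which transgenic mouse 1 was the lowest library. It was at 50.1, 48.1 and 50.7 CPM in wild-type and at 38.6, 49.3 and 48.6 CPM in transgenic mice (log2 fold change -0.13, 95% CI -0.34 to 0.090, adjusted p = 0.417). The log2 fold change of Dnajb9 was -0.020 without transgenic mouse 1 and -0.015 with GC offsets. Herpud1, whose promoter is the one with an ERSE-II and an amino acid response element, had 34.5, 40.9 and 37.5 CPM in wild-type and 46.2, 39.7 and 38.8 CPM in transgenic mice. The log2 fold change of Herpud1 was 0.14 (95% CI -0.064 to 0.35, adjusted p = 0.335), with 0.060 without transgenic mouse 1 and 0.22 without wild-type mouse 2. In all 3 genes the groups overlapped.

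**Figure D3:**
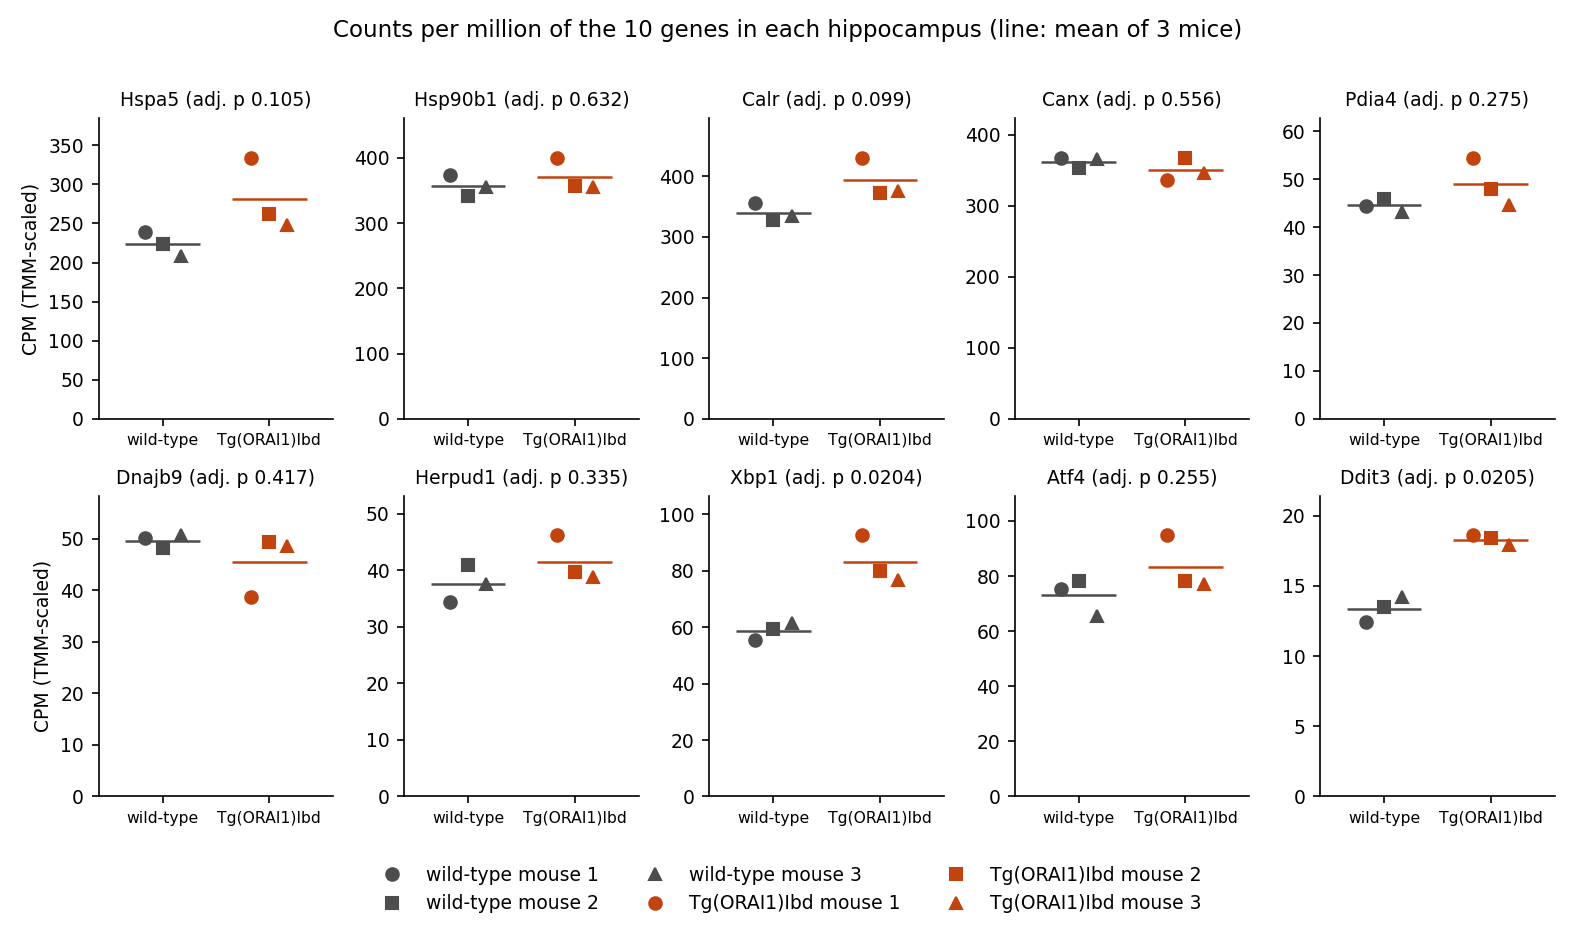
CPM of the 10 genes in each hippocampus, with 1 point per mouse, the mean of 3 mice as a line, a linear axis from 0 in every panel and the adjusted p of edgeR's quasi-likelihood test above it. Xbp1 (55.3 to 61.4 against 76.8 to 92.5 CPM) and Ddit3 (12.4 to 14.2 against 17.9 to 18.6 CPM) show separate groups, and the circle of transgenic mouse 1 is the highest point in 8 panels.

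Transgenic mouse 1 had the highest value of all 6 libraries in 8 of the 10 genes, all but Canx and Dnajb9. It was the highest library for 23.7% of all genes tested. Among 27 other ER chaperones and folding enzymes it was the highest in 11, among 17 cytosolic chaperones in 9 and among 21 targets of ATF4 and CHOP in 8. In the other lists described below it was the highest for 2 of 9 sensors, 4 of 18 genes of ER-associated degradation and 6 of 23 genes of the translocon, which is near the share of all genes. In log2 CPM relative to the wild-type mean it stood at 0.58 for Hspa5, where transgenic mice 2 and 3 stood at 0.24 and 0.15, and at 0.38 for Atf4, where they stood at 0.10 and 0.079. For Ddit3 the 3 transgenic libraries lay closer together, at 0.48, 0.46 and 0.42. The same library had the highest summed level of the neuronal markers, 8040 CPM against 7329 and 7400 CPM in transgenic mice 2 and 3. Its 5 astrocyte markers summed to 3645 CPM, against 4801 and 4752 CPM in transgenic mice 2 and 3 and 3808, 3843 and 5414 CPM in wild-type mice 1 to 3, so it lay close to wild-type mice 1 and 2. Its 5 microglial markers summed to 172 CPM against 258 and 241 CPM, and no marker of these lists was at 0 in any library. No marker was called between genotypes among 7 neuronal, 5 astrocyte, 5 oligodendrocyte and 5 microglial markers. Over all genes tested, 7.10% were called, so the lack of calls is no result about these cell types. The microglial markers had a median of 0.29 in log2 fold change (0.47 without transgenic mouse 1) and sums of 170 to 227 CPM in wild-type mice. Of the 5, 2 had an unadjusted p under 0.05, against 27.8% of all genes tested. DESeq2's Wald test called 1 (Aif1), against 11.7% of all genes tested. Of 5 markers of brain endothelium 1 (Cldn5) was called and higher. Their median was 0.090, or 0.28 without transgenic mouse 1, and their sums were 173 to 187 CPM in wild-type and 169 to 227 CPM in transgenic mice. The part of these differences in the chaperone values was not tested.

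**Figure D4:**
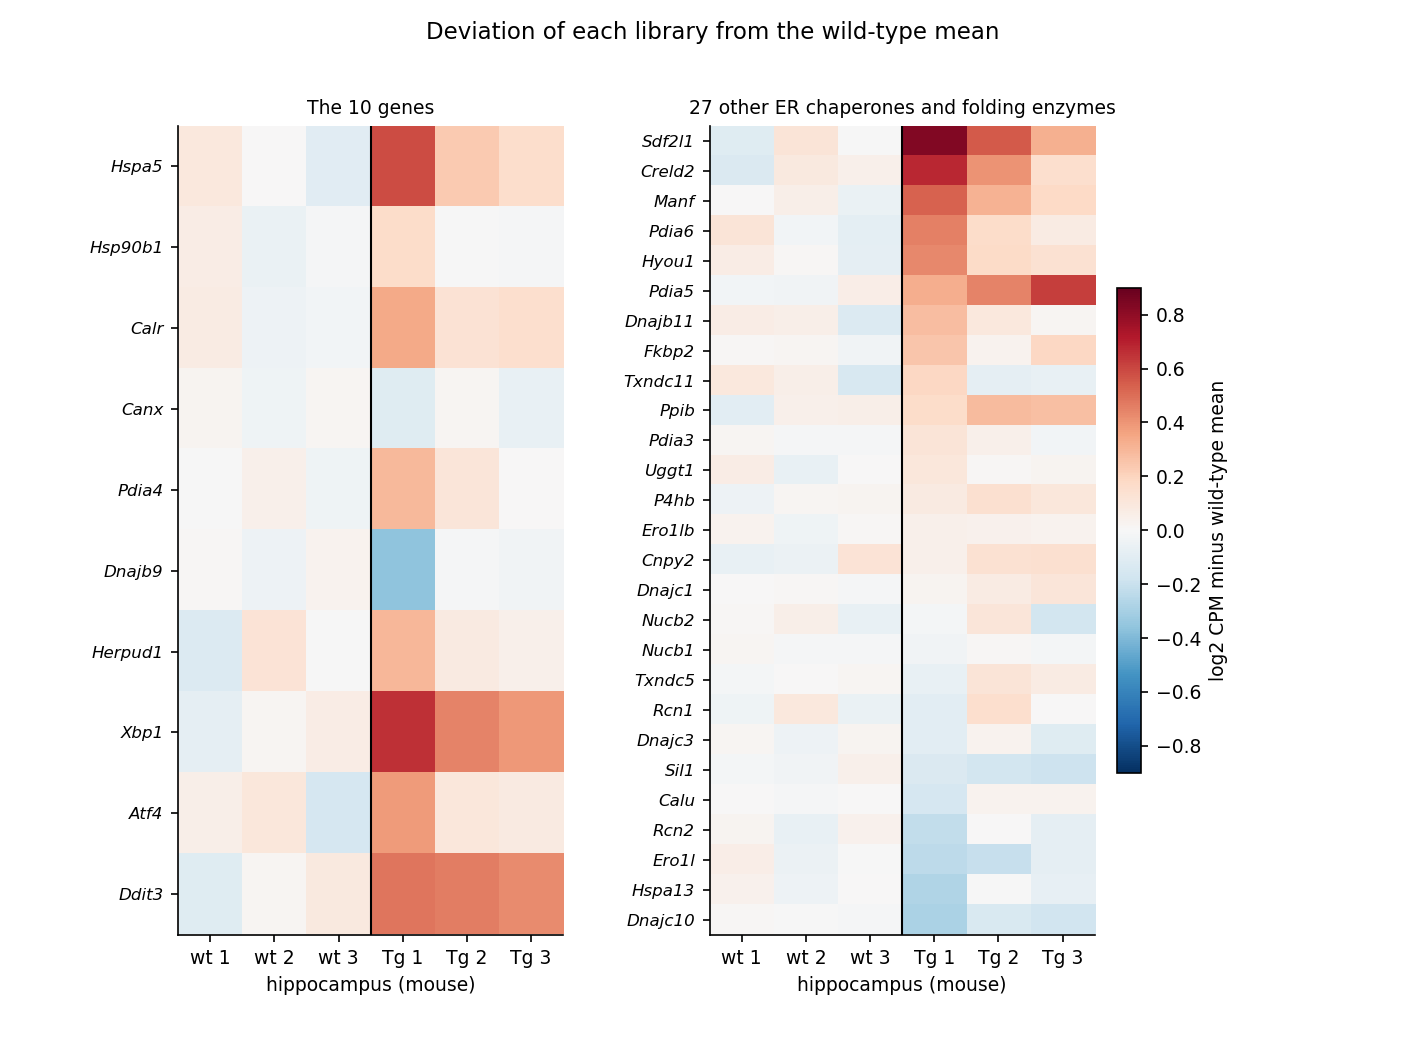
Log2 CPM of each library minus the mean log2 CPM of the 3 wild-type libraries (color, red higher and blue lower), for the 10 genes (left) and for 27 other ER chaperones and folding enzymes ordered by transgenic mouse 1 (right), with wild-type (wt) and transgenic (Tg) mice 1 to 3 as columns. Hspa5 is at 0.58, 0.24 and 0.15 in transgenic mice 1 to 3, and Ddit3 at 0.48, 0.46 and 0.42.

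The other ER chaperones and folding enzymes did not include a called gene. Of 27 measured, 0 passed edgeR's quasi-likelihood test, 9 were higher and 3 lower at an unadjusted p under 0.05, and the median log2 fold change was 0.047 (0.091 with GC offsets, which put the median of all genes at 0.020). Over all genes tested, 13.0% were higher and 14.8% lower at that threshold. DESeq2's Wald test called 4 higher and 1 lower, against 5.53% of all genes higher and 11.7% in either direction. With limma-voom 0 were called, against 6.61% of all genes. The 2 genes with the smallest p were at the edge of the threshold. Sdf2l1, a co-factor of BiP, was at 6.48, 7.58 and 6.97 CPM in wild-type and 12.5, 10.2 and 8.73 CPM in transgenic mice (log2 fold change 0.58, adjusted p = 0.0503). Ppib, the ER cyclophilin B, was at 72.2, 79.8 and 80.0 CPM in wild-type and 86.7, 94.1 and 93.4 CPM in transgenic mice (log2 fold change 0.24, adjusted p = 0.0505). The groups of both genes were separate.

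Of the 9 sensors and membrane-bound factors, 1 was lower and 0 were higher, against 4.0% and 3.10% of all genes tested, so the count says nothing particular about them. Their median log2 fold change was -0.046. The gene called was Mbtps2, the site-2 protease that cuts ATF6. Mbtps2 was at 35.5, 34.6 and 32.7 CPM in wild-type and 26.9, 28.9 and 27.9 CPM in transgenic mice, with a log2 fold change of -0.30 (SE 0.056, adjusted p = 0.0307), which was -0.17 with GC offsets (adjusted p = 0.135). The 3 sensors themselves did not pass. Ern1 (IRE1) was at 19.2 to 19.4 CPM in wild-type and 16.5 to 19.1 CPM in transgenic mice (log2 fold change -0.14, adjusted p = 0.246; with gene length offsets -0.055). Eif2ak3 (PERK) had a log2 fold change of -0.059 (adjusted p = 0.698), which was 0.035 without wild-type mouse 3, and Atf6 of -0.046 (adjusted p = 0.574), and the groups of both overlapped. With GC offsets that of Atf6 was 0.088. Its paralog Atf6b, second by p in the list, had a log2 fold change of 0.17 (adjusted p = 0.142), which was 0.035 with GC offsets (adjusted p = 0.764) and 0.095 without transgenic mouse 1.

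Genes of ER-associated degradation, which draws misfolded proteins out of the ER to the proteasome, numbered 18 beside Herpud1. Of these, 1 was higher (3.10% over all genes) and 1 lower (4.0% over all genes), counts too small to set the list apart. The median log2 fold change was 0.017 (0.041 with GC offsets). Derl3, a membrane component of the retrotranslocation machinery, was scarce, with 33 to 54 counts in the wild-type and 67 to 99 counts in the transgenic libraries. It was at 1.03, 0.782 and 1.06 CPM in wild-type and 2.12, 2.39 and 1.79 CPM in transgenic mice, without overlap. Derl3 rose by 1.13 on the log2 scale (SE 0.19, adjusted p = 0.0255). Its call was lost without wild-type mouse 1 (adjusted p = 0.109), wild-type mouse 2 (0.105), transgenic mouse 2 (0.0738) or transgenic mouse 3 (0.0655), and with GC offsets and the replicate number as a block (0.0537). Its log2 fold change stayed between 1.02 and 1.25 in the 6 fits that left out a mouse and was 1.03 in that blocked fit. Edem3, which trims the sugars of glycoproteins bound for degradation, fell from 67.1 to 70.4 CPM in wild-type to 58.3 to 59.9 CPM in transgenic mice (log2 fold change -0.21, adjusted p = 0.0336), and its call was lost with GC offsets (-0.14, adjusted p = 0.126).

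Among 21 targets of ATF4 and CHOP, 1 was higher and 1 lower, near the 7.10% called over all genes. Their median log2 fold change was 0.062 (0.097 with GC offsets). Shmt2, the mitochondrial serine hydroxymethyltransferase, was at 19.0, 18.2 and 20.4 CPM in wild-type and 24.4, 23.0 and 24.0 CPM in transgenic mice (log2 fold change 0.31, adjusted p = 0.0367; with GC offsets 0.22, adjusted p = 0.108). Vldlr, a lipoprotein receptor, fell from 119 to 122 CPM to 99.5 to 103 CPM (log2 fold change -0.26, adjusted p = 0.0200), and its call was lost with gene length offsets (-0.15, adjusted p = 0.106). Of the 23 genes of the translocon, signal peptidase and oligosaccharyltransferase, through which new proteins enter the ER and are glycosylated, 0 passed edgeR's test, DESeq2's or limma-voom. At an unadjusted p under 0.05, 4 of them (against 13.0% of all genes) were higher and 3 (against 14.8%) lower. Their median log2 fold change was 0.071, and the smallest p belonged to Sec11c (0.15, adjusted p = 0.0750; with GC offsets 0.26) and Sec63 (-0.12, adjusted p = 0.0962; with GC offsets 0.045).

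The list called cytosolic chaperones, which also holds co-chaperones and a heat shock transcription factor, was taken for comparison. Of 17, 1 was lower and 0 higher, near the 7.10% called over all genes, and the median log2 fold change was 0.12. Hspa4l, an HSP110 family member, fell from 189 to 210.0 CPM in wild-type to 162 to 176 CPM in transgenic mice (log2 fold change -0.25, adjusted p = 0.0484), and with GC offsets it was at -0.13 (adjusted p = 0.339). Dnajb1, an HSP40, had a log2 fold change of 0.33 (adjusted p = 0.0713), which was 0.21 without transgenic mouse 1. With a mouse left out, the calls of Mbtps2 and Vldlr were lost without wild-type mouse 1 or 2 or transgenic mouse 2 or 3, those of Edem3 and Hspa4l in these fits and without wild-type mouse 3, and that of Shmt2 in these 4 fits and without transgenic mouse 1. Over these losses the adjusted p ran from 0.0525 to 0.220. The log2 fold changes in the 6 fits ran from -0.32 to -0.25 for Mbtps2, from -0.26 to -0.22 for Vldlr, from -0.22 to -0.18 for Edem3, from -0.29 to -0.18 for Hspa4l and from 0.29 to 0.36 for Shmt2. In the fit with the replicate number as a blocking term, the calls of Mbtps2 (adjusted p = 0.0567), Edem3 (0.0671) and Shmt2 (0.0551) were lost too, at log2 fold changes of -0.30, -0.21 and 0.31.

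**Figure D5:**
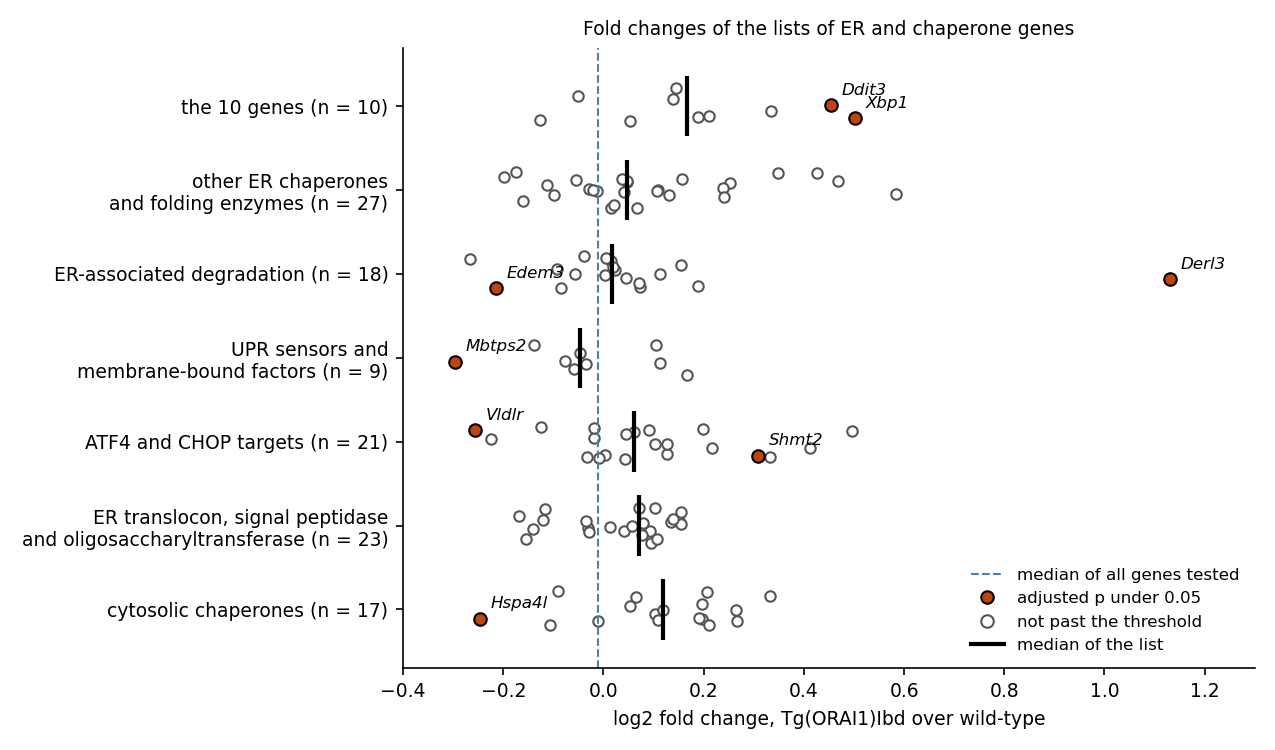
Log2 fold change between Tg(ORAI1)Ibd and wild-type hippocampi for the 10 genes and 6 lists of related genes, with 1 point per gene, the median of each list as a black line and the median of all genes tested (-0.010) as a dashed line; the vertical scatter within a list is only for legibility. Filled points with names passed an adjusted p of 0.05, and the medians run from -0.046 for the sensors to 0.17 for the 10 genes.

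Beside the promoter matches above, the log2 fold changes of the 4 genes with an ERSE (Hspa5, Calr, Hsp90b1 and Canx) ran from -0.050 to 0.33. Of these 4, 0 were called by edgeR's test and 2, Hspa5 and Calr, by DESeq2's Wald test, which called 11.7% of all genes tested. At the 7.10% called over all genes, a count of 0 in 4 is no result about these genes, and no contrast with Xbp1 and Ddit3 was tested. Of 101 genes of all these lists with a promoter in RefSeq, 9 held an ERSE. Over the whole table, 21 tested genes had an ERSE in their promoter, 1 of which was higher (Derl3) and 1 lower (Acacb, named after its values were seen), too few to set apart from the share over all genes. Their median log2 fold change was 0.13.

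The 3 genes whose pattern over the 6 libraries was most like that of Xbp1, by the root mean square difference of centered log2 CPM among 6569 genes with a mean log2 CPM above 5, were Otub2 (0.050), Ak4 (0.067) and Pop5 (0.080). All 3 were picked for this likeness, so a difference between genotypes was built into the choice. Otub2, a deubiquitinase, was at 32.5, 33.8 and 34.1 CPM in wild-type and 50.2, 46.2 and 46.4 CPM in transgenic mice (log2 fold change 0.51). Ak4, a mitochondrial adenylate kinase, had 64.7 to 67.0 CPM in wild-type and 81.6 to 99.5 CPM in transgenic mice, and Pop5, a subunit of RNase P, had 27.8 to 28.6 CPM and 34.6 to 39.7 CPM.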

How the data were processed

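Hippocampal RNA of 6 females, 3 wild-type and 3 Tg(ORAI1)Ibd, was sequenced with 1 library each. Per the labels and the file header, the authors filtered reads with Trimmomatic, aligned them to mm10 with STAR and counted fragments per gene with featureCounts 1.5.0-p1 on the Ensembl 95 annotation, reversely stranded (setting 2), primary alignments only, with a mapping quality of at least 3. The deposited counts are whole numbers without normalization for 54838 genes in 6 columns. All 6 were used, and samples were grouped by the labels.

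Genes were kept by filterByExpr (minimum count 10) and libraries scaled by TMM. The genotype comparison was edgeR's quasi-likelihood test over 19087 genes without covariates (Benjamini-Hochberg, threshold 0.05), as the study's own NOISeq test was not available. CPM and FPKM use the scaled totals. Confidence intervals cover the fitted spread between mice. An exact two-sided permutation test of 3 against 3 cannot give a p below 0.1, so none is given for single genes.

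The 10 genes and all lists were chosen with earlier results of these data known. Besides the 10 genes, the text names Orai1, Ern1, Eif2ak3 and Atf6, up to 6 called genes of each list or, if fewer than 2 were called, its 2 genes with the smallest p, and the 3 genes most like Xbp1, the gene of the 10 with the smallest adjusted p. Outside this rule it names Prox1, Fibcd1 and Neurod6 as markers of the tissue and, after their values were seen, Acacb, Cldn5 and Aif1, and it gives marker lists by counts and sums. Alternatives were other scalings, filters and tests, GC and gene length offsets (loess, span 0.5), a replicate block and each mouse left out. R 4.3.3, edgeR 4.0.16, limma 3.58.1, DESeq2 1.42.0, matplotlib 3.10.9, pandas 2.3.3, numpy 2.4.6 and Python 3.11.15 were used.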

Additional observations from a re-analysis of the deposited data

How the results depend on the processing

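Xbp1 and Ddit3 kept their direction and an adjusted p under 0.05 in all 11 alternatives that used all mice, with log2 fold changes of 0.50 to 0.52 and 0.41 to 0.47. Both lost the call in 4 of 6 fits without a mouse, as given above. Of the 10 genes 4 were called with DESeq2's Wald test. The number called with a mouse left out was 0 to 2 of the 10 genes, 77 to 1149 of all genes, 0 to 1 sensors, 0 to 1 other ER chaperones, 0 to 2 genes of ER-associated degradation, 0 to 3 targets of ATF4 and CHOP and 0 to 1 cytosolic chaperones. Between 8 and 10 of the 10 genes kept their rank by FPKM in each genotype. Over all genes, 2230 were called with DESeq2's Wald test, 432 with GC offsets, 552 with GC offsets and the block, and 778 with gene length offsets. Among other ER chaperones, 5 were called with DESeq2's Wald test, 4 without a filter, 2 with at least 10 counts in every library, 1 with total counts and 1 with DESeq2's size factors. Among the sensors 0 were called with GC or gene length offsets. Of ER-associated degradation genes 1 was called without a filter, with GC offsets and with gene length offsets, and of ATF4 and CHOP targets 1 with GC offsets and 0 with gene length offsets. Cytosolic chaperones gave 3 calls with DESeq2's Wald test and 0 with DESeq2's size factors, limma-voom, the stricter filter, GC offsets or gene length offsets. The cause of these changes was not tested.

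Signs turned for genes without a call. Log2 fold changes became 0.10 for Canx and 0.045 for Sec63 with GC offsets (0.0995 and 0.044 with the block too), and for Atf6 0.088 with GC offsets, 0.086 with the block too, 0.053 with gene length offsets and -0.062 to 0.0092 with a mouse left out, the highest without transgenic mouse 2. With a mouse left out, that of Hsp90b1 ran from -0.0055 (without transgenic mouse 1) to 0.11 and that of Eif2ak3 from -0.10 to 0.035 (without wild-type mouse 3).

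The labels number the mice of both genotypes 1 to 3. Wild-type and transgenic mice of the same number deviated from their genotype's mean with correlations of 0.399, -0.357 and 0.388 across 11191 genes, so the numbers were not taken as pairs. With the replicate number as a block, 738 genes, 3 of the 10 genes (Hspa5 added, adjusted p = 0.0487), 0 sensors, 1 other ER chaperone and 1 gene of ER-associated degradation were called. With the block and GC offsets the same 3 of the 10 genes were called, with 0 sensors, 3 other ER chaperones, 0 genes of ER-associated degradation, 1 target of ATF4 and CHOP and 0 cytosolic chaperones. Derl3 had only 33 to 99 counts per library, and the part of counting error in its spread was not tested.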
